A study of Homo sapiens with 4 samples.

Results

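The control arm of an RNA-seq series on THP-1 cells was described by the level of every gene in its tables. Its members are the 2 libraries, of 4 in the series, whose titles carry the word Scrambled, and each library gives a value for 25680 gene rows. Both libraries come from THP-1, an established human cell line that the labels call an AML (acute myeloid leukaemia) cell line. The cells grew in RPMI medium with serum and antibiotics, were transduced with the lentivirus PGP-Scrambled, which carries a scrambled short hairpin RNA, and were sorted 48 hours later. Libraries were built with an Illumina TruSeq RNA kit from 1 ug of total RNA. The titles mark the libraries as experimental replicates 1 and 2, but nothing says that they came from separate cultures, so the spread between them may be technical. The cells had been exposed to virus and cell sorting, and no untransduced THP-1 library is in the series.

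THP-1 is a monocytic line. In normal bone marrow, progenitors that carry surface proteins such as CD34 and KIT give rise to promyelocytes, which fill their primary granules with serine proteases, and to monocytes, which carry CD14, lysozyme, Fc receptors and the S100A8 and S100A9 proteins. The transcription factors PU.1 (encoded by SPI1), C/EBPα (CEBPA) and IRF8 direct that course, while MYB and the HOXA genes are typical of immature and leukaemic cells. Levels of different genes are compared here in TPM, a scale that divides each count by the length of the gene row and sets the sum of a library to 1000000. In bulk RNA, a gene carried by fewer cells and a gene with less RNA in each cell cannot be told apart.

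The total counts were 31458079 and 51655687, so library 2 was 1.64 times as deep. At least 1 count was seen in 18991 rows of library 1 and 19486 rows of library 2. Thinned in calculation to the depth of library 1, library 2 would be expected to have 18955 such rows. Both libraries had a TPM of 1 or more in 13796 rows, 53.7% of all rows, and 5675 rows (22.1%) were at 0 in both. Of the 18375 rows that GENCODE v29 lists as protein-coding, 11474 (62.4%) had a TPM of 1 or more in both libraries and 2781 (15.1%) were at 0 in both. A row at 0 could still hold up to 3 counts at these depths, or 0.0954 CPM (counts per 1000000 of the library total) in library 1 and 0.0581 in library 2, counting error only.

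Transcript levels were concentrated in few rows. The 100 rows with the highest mean TPM held 44.5% and 43.0% of all TPM in libraries 1 and 2 (mean 43.7% ± 1.02 SD, n = 2), and the first 10 held 13.2% and 12.4%. On the count scale, which favours long genes, the same 100 rows held 20.87% and 20.03%. It took 157 rows in library 1 and 177 in library 2 to reach 50% of TPM, against 814 and 861 rows to reach 50% of counts. A mean TPM above 1000 was found in 127 rows, 100 to 1000 in 1142, 10 to 100 in 7633 and 1 to 10 in 5125.

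**Figure D1:**
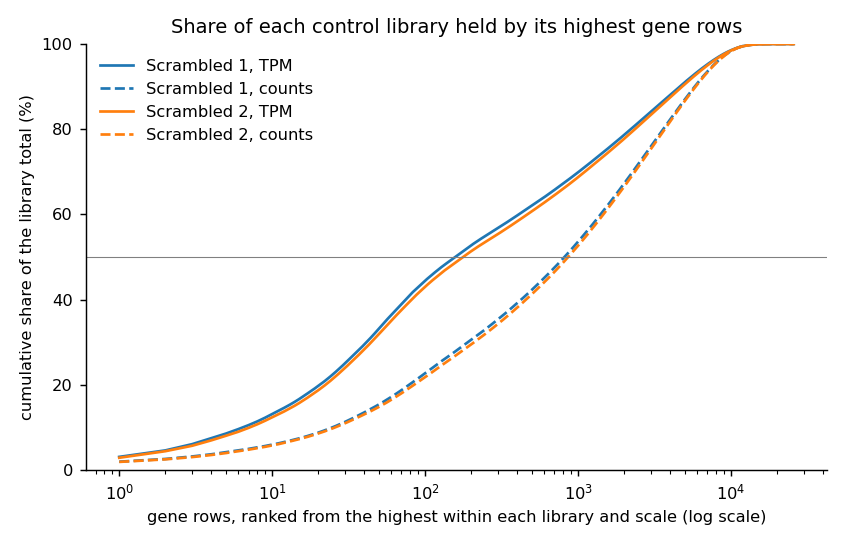
Cumulative share of each control library (vertical axis, %) against gene rows ranked from the highest within that library and scale (horizontal axis, log scale), for TPM (solid lines) and counts (dashed lines). The lines of the 2 libraries nearly coincide, and 157 and 177 rows reach 50% of TPM where 814 and 861 rows are needed on counts.

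At the very top stood 2 rows named for microRNAs, MIR4426 and MIR3654. A TruSeq RNA library is not a small RNA library. MIR4426 had 31057 and 28983 TPM from 30030 and 45197 counts, with a deposited row length of 60 bases. MIR3654 had 15150 and 15379 TPM from 13673 and 22384 counts, with a length of 56 bases. MIR1282 stood at rank 21, with 5539 and 5667 TPM and a length of 101 bases. TPM divides by length, so a short row needs few counts for a high value. MIR4426 held 3.11% and 2.90% of TPM but only 0.0955% and 0.0875% of counts.

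The RefSeq hairpin sequences (GRCh38.p14) of these rows are shown because they share sequence with transcripts of other genes. Capitals mark the bases that are identical to a spliced GENCODE v29 transcript of another gene that has a row here. MIR223, a microRNA of myeloid cells, is set beside them as a row with no such stretch. Its hairpin does match a transcript of a gene without a row, which is not marked.
MIR4426, chr1:192716328-192716390, plus strand: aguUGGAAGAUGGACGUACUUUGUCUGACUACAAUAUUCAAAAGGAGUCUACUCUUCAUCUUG
MIR3654, chr7:133034860-133034915, minus strand: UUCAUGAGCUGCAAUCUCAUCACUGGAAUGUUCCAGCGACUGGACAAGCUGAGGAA
MIR1282, chr15:43793659-43793759, minus strand: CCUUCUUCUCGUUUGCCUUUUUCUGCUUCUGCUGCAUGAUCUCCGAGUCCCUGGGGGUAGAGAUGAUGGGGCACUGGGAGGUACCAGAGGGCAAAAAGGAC
MIR1244-1, chr2:231713314-231713398, plus strand: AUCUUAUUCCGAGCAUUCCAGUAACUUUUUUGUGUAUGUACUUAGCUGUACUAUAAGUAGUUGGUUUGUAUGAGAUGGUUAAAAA
MIR223, chrX:66018870-66018979, plus strand: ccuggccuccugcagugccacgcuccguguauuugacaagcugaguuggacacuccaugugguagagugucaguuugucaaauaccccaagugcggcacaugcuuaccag

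Bases 4 to 63 of the MIR4426 hairpin are identical to RPS27A, which encodes ubiquitin fused to a ribosomal protein and had 2369 and 2101 TPM in its own row. All 56 bases of the MIR3654 hairpin are identical to EEF1G, a subunit of the translation elongation factor 1 complex, at 3220 and 3126 TPM. All 101 bases of MIR1282 match SERF2 on the opposite strand, a gene at 245 and 244 TPM. The MIR1244 hairpin, listed at 3 places with the same counts (3640 and 12329) and a deposited length of 328 bases, occurs in PTMA, which encodes prothymosin alpha and had 2905 and 3187 TPM. Whether a counted read came from a microRNA transcript or from the matching gene was not tested.

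Such shared sequence was frequent among the high microRNA rows. Of the 1625 rows with a MIR name, 1357 had a RefSeq hairpin. An exact stretch of at least 30 bases in a spliced transcript of another gene was found for 35 of the 43 hairpins whose row had a mean TPM of 100 or more (81.4%), 31 of them in a gene of the table. The share was 53.2% of 126 hairpins at 10 to 100 TPM and 9.24% of the 747 hairpins whose row was at 0. MIR223, at 360.5 and 333 TPM, and MIR142, another microRNA of blood cells, at 195 and 227 TPM, had no such stretch in a gene of the table. Both hairpins are among the 35, through transcripts of genes without a row here. All rows under 200 bases that had a count, 988 in number, together held 7.98% and 7.95% of TPM but 0.287% and 0.283% of counts.

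Below the microRNA names, the top of the order belonged to protein synthesis. RPS27, a small-subunit ribosomal protein, had 14742 and 12691 TPM, and RPS6, the ribosomal protein phosphorylated by S6 kinase, had 13943 and 12820 TPM. EEF1A1, which delivers aminoacyl-tRNA to the ribosome, had 10996 and 10912 TPM. RPL37A, RPS12, RPS25 and RPL4 followed between 6415 and 10268 TPM. The 79 cytosolic ribosomal protein genes summed to 287927 TPM in library 1 and 274731 in library 2, and 78 of them had a TPM of 1 or more in both. The exception was RPS18, at 0.109 and 0.0538 TPM, which lies in a region taken up below.

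Other leading rows were FTL, the ferritin light chain that stores iron, at 8768 and 8345 TPM, and TMSB4X, thymosin beta 4, which binds monomeric actin, at 6635 and 6409 TPM. B2M, the light chain of MHC class I, had 5337 and 5457 TPM, and GAPDH, a glycolytic enzyme, had 5232 and 5126. Only 2 of the 30 highest rows are proteins of the myeloid granule: CTSG, cathepsin G, at rank 13 with 6500 and 6655 TPM, and SRGN, the proteoglycan serglycin that packs granule proteases, at rank 29 with 4969 and 5024 TPM. The ranges of the 2 libraries overlapped for 21 of the 29 neighbouring pairs among the 30 highest rows, so most of that order is not resolved. RPL21 and its pseudogene RPL21P28 differed by 1 count in each library (61782 against 61781, and 89773 against 89772), and RPL13AP5 is a pseudogene of RPL13A, so the values of these rows are uncertain.

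The first bases of these genes share a feature that TPM does not use. Messenger RNAs of the translation machinery commonly begin with a C followed by a run of pyrimidines, the 5′ terminal oligopyrimidine tract through which mTOR signalling controls their translation. The stretches below run from 20 bases before to 10 bases after the RefSeq start (GRCh38.p14), with the unbroken pyrimidine run at the start in capitals. They show the genes with such a run first and 4 leading genes without one last.
RPS27, chr1:153990742-153990771, plus strand: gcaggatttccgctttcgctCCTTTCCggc
RPS6, chr9:19380227-19380256, minus strand: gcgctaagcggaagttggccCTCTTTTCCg
EEF1A1, chr6:73521023-73521052, minus strand: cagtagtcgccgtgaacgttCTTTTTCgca
RPS12, chr6:132814549-132814578, plus strand: ggcatgcgtgcggatgaggcCTCTTTCCCT
RPLP1, chr15:69452798-69452827, plus strand: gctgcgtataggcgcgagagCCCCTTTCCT
RPLP0, chr12:120201102-120201131, minus strand: ggcacgcgcgggcgcgaggcCCTTCTCTCg
FTL, chr19:48965289-48965318, plus strand: cgccctagccacgtcccctcgcagttcggc
CTSG, chr14:24576241-24576270, minus strand: ggaggaggaagcacagcagcaactgactgg
B2M, chr15:44711497-44711526, plus strand: gaggcgtcgcgctggcgggcattcctgaag
GAPDH, chr12:6535244-6535273, plus strand: tgcgcagcgggtgcatccctgtccggatgc

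A start of C followed by at least 4 pyrimidines was found in 12 of the 20 genes among the 30 highest rows that had a RefSeq window. Across the lists it was found in 43 of 63 ribosomal protein genes (68.3%) and 9 of 26 translation factors (34.6%), against 4.61% of all 14651 protein-coding genes with a window. It was found in 4 of 23 genes of G1/S and replication (17.4%), 3 of 29 of oxidative phosphorylation (10.3%) and 3 of 12 of the natural killer list (25%). None of 19 glycolysis genes, 29 proteasome genes or 21 genes of G2 and mitosis had it. RPL4, RPL19 and RPL27 did not start this way at the RefSeq position. A start given by RefSeq need not be the start used in THP-1.

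The other lists of basic cell functions were present nearly in full. All 34 translation factors, 28 cytoskeletal genes, 20 glycolysis genes and 46 nuclear-encoded genes of oxidative phosphorylation had a TPM of 1 or more in both libraries. Median TPM was 242 and 240 for the translation factors, 538 and 517 for the cytoskeleton, 252 and 250 for glycolysis and 186 and 171 for oxidative phosphorylation. Over all 25680 rows the share at a TPM of 1 or more was 53.7%. ACTB, beta actin, had 4094 and 4604 TPM, ENO1, enolase, had 1551 and 1541, and P4HB, a protein disulfide isomerase, had 2320 and 2401.

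Proliferation genes were likewise all present. Each of 28 genes of G1/S and replication and 26 genes of G2 and mitosis had a TPM of 1 or more in both libraries, with medians of 52.3 and 52.3, and of 61.8 and 60.4. TYMS, thymidylate synthase, had 247 and 239 TPM, and PCNA, the sliding clamp of DNA polymerase, had 192 and 193. CDC20, an activator of the anaphase-promoting complex, had 165 and 173, and MKI67, which encodes the Ki-67 antigen, had 65.4 and 63.2. In this list of mitotic genes 18 of 21 promoter windows (85.7%) held the word CCAAT on either strand, the core of NF-Y sites, against 36.7% of all windows. The word was as frequent in the MHC class II (10 of 11) and HOXA (8 of 9) windows. It was in 14 of 23 windows of G1/S and replication, 6 of 19 of glycolysis and 21 of 63 of ribosomal proteins.

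Lineage identity was read from 17 marker lists, and the granule and the monocyte lists were the best represented. Of 36 monocyte and macrophage markers, 26 (72.2%) had a TPM of 1 or more in both libraries. That share was 53.7% over all rows and 62.4% over protein-coding rows, so the count is not far above the background. S100A9 had 1357 and 1301 TPM and S100A8 had 941 and 832; together these proteins form calprotectin. FCER1G and TYROBP, the adaptor chains of activating receptors, had 319 and 281, and 263 and 275 TPM. Among the defining genes, LYZ (lysozyme) had 187 and 203 TPM, CD68, a lysosomal protein of macrophages, had 172 and 180, and CSF1R, the receptor for macrophage growth factor, had 22.9 and 24.4. CD14, the co-receptor for lipopolysaccharide, had only 1.92 and 2.24 TPM.

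Other members of the same list were at or near 0. MRC1, the mannose receptor, and C1QB, a chain of complement C1q, were at 0 in both libraries. CD163, the haemoglobin scavenger receptor, had 0.0148 and 0.0367 TPM, and MSR1, a scavenger receptor, had 0.0226 and 0.0140. The integrins split, with ITGAX (CD11c) at 103 and 107 TPM and ITGAM (CD11b) at 10.9 and 10.9. Among the chemokine receptors, CCR2 had 31.8 and 30.8 TPM and CX3CR1 had 15.5 and 14.1.

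The granule and neutrophil list stood highest of all marker lists, with 19 of 25 members (76%) at a TPM of 1 or more and medians of 39.4 and 36.6. The neutrophil serine proteases and their inactive relative were abundant: CTSG as given above, AZU1 (azurocidin) at 1578 and 2108 TPM, PRTN3 (proteinase 3) at 1087 and 1305, and ELANE (neutrophil elastase) at 1009 and 1336. RNASE2, the eosinophil-derived neurotoxin, had 1004 and 922 TPM. MPO, myeloperoxidase, which is stored in the same primary granules, had 17.0 and 19.1 TPM, and the ranges of MPO and ELANE did not overlap. Genes of the later, secondary granules were low or absent: LTF (lactoferrin) had 0 and 0.0136 TPM, LCN2 and CEACAM8 were at 0 in both, and CAMP had 1.42 and 1.55.

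The upstream windows of 2 of these protease genes are shown because GAGGAA, the purine-rich core that PU.1 and other ETS factors bind, lies in them. Each runs over the 160 bases before the RefSeq start (GRCh38.p14), with GAGGAA, or TTCCTC on the other strand, in capitals.
CTSG, chr14:24576251-24576410, minus strand: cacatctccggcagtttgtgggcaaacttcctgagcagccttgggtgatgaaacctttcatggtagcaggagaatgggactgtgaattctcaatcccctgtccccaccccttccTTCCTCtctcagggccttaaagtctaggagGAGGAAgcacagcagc
PRTN3, chr19:840839-840998, plus strand: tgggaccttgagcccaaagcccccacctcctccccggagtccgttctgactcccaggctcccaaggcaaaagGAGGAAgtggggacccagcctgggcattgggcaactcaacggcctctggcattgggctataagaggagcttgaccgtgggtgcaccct

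In the full 300-base windows the word GAGGAA, searched on both strands, was present in 16 of 29 monocyte genes (55.2%) and 9 of 19 granule genes (47.4%), and in 27.6% of all protein-coding windows. It was also present in 6 of 6 dendritic cell genes and 6 of 9 mast cell, basophil and eosinophil genes, lists with 2 of 12 and 3 of 13 members at a TPM of 1 or more. In the solid tissue lists it was in 5 of 7 endothelial, 4 of 6 epithelial, 3 of 8 hepatocyte and 2 of 6 fibroblast genes. It was in 1 of 10 germ cell, 1 of 8 neuron and 1 of 7 skeletal muscle genes. The word was therefore not particular to the myeloid lists. The windows of AZU1 and RNASE2 did not hold it in the 160 bases before the start. A match is a description of the letters and not evidence of binding.

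Progenitor genes were divided. MYB, a transcription factor of immature blood cells, had 381 and 379 TPM, the highest of 48 haematopoietic transcription factors. FLT3, a receptor kinase often mutated in acute myeloid leukaemia, had 39.9 and 37.5 TPM, and CD38 had 22.5 and 23.7. KIT, the stem cell factor receptor, had 1.52 and 1.55 TPM. The surface markers CD34 and PROM1 (CD133) were at 0 in both libraries, as were AVP, CRHBP and MYCT1, and HLF, a factor of stem cells, had 0.0111 and 0.0275 TPM. In all, 10 of 20 members of the list (50%) had a TPM of 1 or more, beside 62.4% of protein-coding rows.

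**Figure D2:**
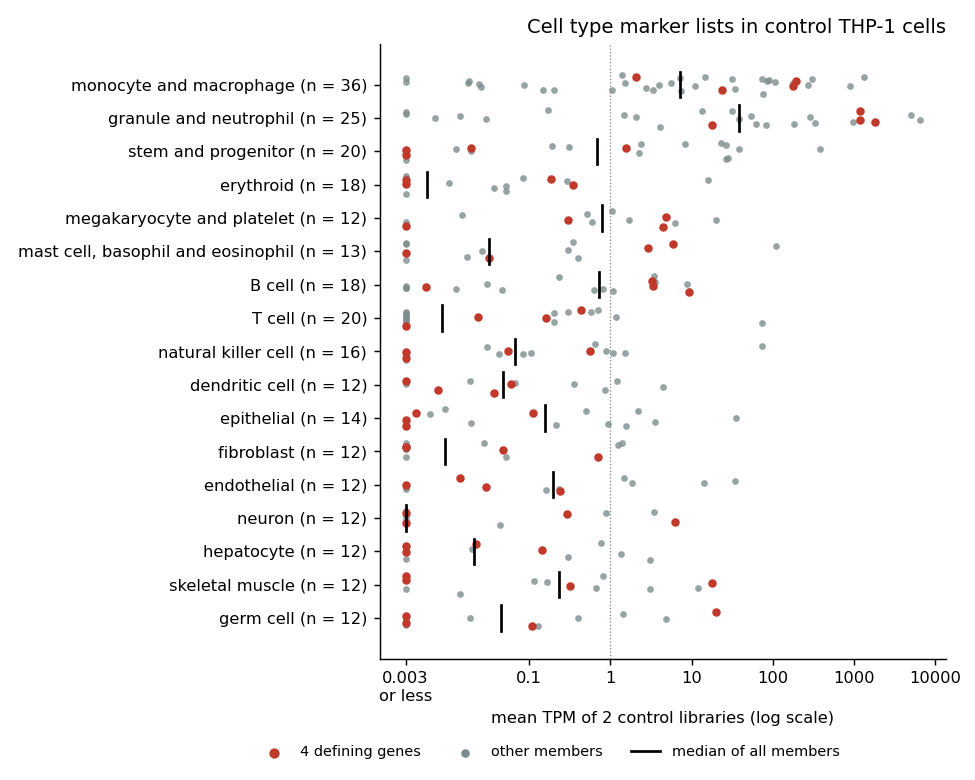
Mean TPM over the 2 control libraries (horizontal axis, log scale) of every member of 17 cell type marker lists (rows, n = members). Red points are the 4 defining genes, grey points the other members and black bars the median of all members; the granule and the monocyte lists have the 2 highest medians, and points at the left edge are at or near 0.

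The transcription factors followed the same division. Of 48 members, 34 (70.8%) had a TPM of 1 or more in both libraries, beside 62.4% of protein-coding rows. After MYB came IRF8 (289 and 301 TPM), CEBPA (282 and 301), GFI1 (160 and 164), SPI1 (142 and 169), MYC (128 and 135), LMO2 (131 and 132) and ELF1 (106 and 106). The core-binding factors CBFB (66.9 and 85.2), RUNX1 (54.999 and 61.2) and RUNX3 (37.7 and 41.4) were in the middle range, with IKZF1 at 73.5 and 73.9, ETV6 at 47.0 and 45.7, FLI1 at 44.0 and 47.0 and ZEB2 at 44.7 and 45.6. The ranges of IRF8 and CEBPA overlapped, as did those of 22 of the 46 neighbouring pairs in this order.

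Other myeloid factors lay below CEBPA and SPI1. KLF4, which drives monocyte differentiation, had 6.69 and 8.82 TPM, and MAF had 0.0541 and 0.0448. CEBPB had 14.98 and 15.5 TPM, CEBPD 17.7 and 23.4, and CEBPE, the factor of secondary granule genes, 8.82 and 12.3. Several factors of other lineages were near 0: GATA1 (0.378 and 0.208), KLF1 (0.384 and 0.310), TAL1 (0.0851 and 0.0528), EBF1 (0.0235 and 0.0365) and GATA3, which was at 0 in both. PAX5, the B cell factor, had 8.91 and 9.71 TPM, and GATA2 had 24.9 and 28.6.

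HOX genes, which set position along the body axis and are often kept on in leukaemia, were present as a block at the 5′ end of the HOXA cluster. HOXA9 had 51.6 and 56.6 TPM, HOXA10 45.0 and 50.7, HOXA11 39.5 and 37.6, and HOXA13 21.1 and 25.2. The ranges of these 4 genes did not overlap. The other 7 HOXA genes lay between 0.105 and 1.77 TPM, below all of them. HOXB4 (4.49 and 4.41) and HOXB3 (3.82 and 4.24) led the HOXB cluster, HOXC4 (1.24 and 1.39) led HOXC, and 7 of 9 HOXD genes were at 0 in both libraries. MEIS1, a HOX cofactor, had 2.42 and 2.38 TPM, whereas PBX3, another one, had 70.2 and 72.8. KMT2A, which THP-1 is known to carry fused to MLLT3, had 19.03 and 18.3 TPM, and the MLLT3 row had 2.28 and 2.42. These gene rows do not separate fusion reads from others.

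For growth factor and cytokine receptors, 21 of 28 list members (75%) had a TPM of 1 or more in both libraries. For Fc receptors, which bind antibodies, it was 9 of 14 (64.3%), near the 62.4% of all protein-coding rows. CSF3R, the G-CSF receptor, led with 177 and 188 TPM, followed by IL6R at 136 and 138, IFNGR2 at 140 and 133 and IL17RA at 135 and 137. CSF2RB, the shared chain of the GM-CSF and IL-3 receptors, had 7.96 and 10.3 TPM. Its partners CSF2RA and IL3RA were listed at 0 in both libraries, within a run of rows at 0 taken up below. Of the Fc receptors, FCGR1A, the high-affinity receptor for IgG, had 92.9 and 84.4 TPM, FCGRT, the neonatal receptor, 82.9 and 93.6, and FCGR2A 34.6 and 33.9. FCGR3A (CD16) had 0.0775 and 0.0961 TPM, and FCER1A was at 0. FCGR1A and FCGR1B are near-identical copies, so their split is uncertain.

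Innate sensing and cytokine genes were unevenly present. TLR2, a receptor for bacterial lipopeptides, had 72.7 and 77.8 TPM, TLR4, the lipopolysaccharide receptor, had 6.85 and 7.70, and LY96, which TLR4 needs to bind its ligand, had 0.908 and 0.813. TLR3, TLR7, TLR8 and TLR10 were all below 0.3 TPM in both libraries. Among 34 cytokines and chemokines, MIF had 253 and 321 TPM, CCL5 had 253 and 255 and VEGFA had 102 and 104. The chemokines CCL3 and CXCL8 had 49.8 and 47.2, and 19.1 and 18.3 TPM, and IL1B had 7.17 and 6.47. IL6 had 0 and 0.0650 TPM, and IL15, IFNG and CSF2 were at 0 in both.

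Markers of other lineages were present in part. The 15 lists other than the monocyte and granule lists held 215 different genes, of which 54 (25.1%) had a TPM of 1 or more in both libraries. The share over all protein-coding rows was 62.4%. In the erythroid list it was 1 of 18 genes, EPOR at 15.6 and 15.9 TPM, and HBB was at 0. In the T cell list it was 1 of 20, the adaptor LAT at 70.2 and 76.2 TPM, and CD3E, CD2 and LCK were at 0. In the natural killer list NKG7, a granule membrane protein, had 68.2 and 78.8 TPM, and the defining genes KLRD1 and NCR1 were at 0. For the other defining genes, GNLY had 0.691 and 0.428 TPM and NCAM1 0.0364 and 0.0722, and the summed level of the natural killer list was 73.0 and 84.0, nearly all of it NKG7.

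Among the lymphoid lists, the B cell list had the largest share of members at a TPM of 1 or more. It was 8 of 18 (44.4%), still below the 62.4% of all protein-coding rows. Among the 8 were CD79A, a chain of the B cell receptor, at 3.21 and 3.36 and PAX5 as above. CD79B had 9.13 and 9.56 TPM, whereas MS4A1 (CD20) had 0 and 0.0107. The megakaryocyte list had 6 of 12 members (50%) at 1 or more, also below the share over protein-coding rows. It was led by NRGN (19.003 and 20.9), GP1BA (6.43 and 6.15) and ITGA2B (4.32 and 5.48), with PF4 at 0. In the mast cell, basophil and eosinophil list PRG2, eosinophil major basic protein, had 112 and 110 TPM, from counts equal to those of OPA3 in both libraries, and EPX, eosinophil peroxidase, 5.71 and 6.20, while CPA3 and FCER1A were at 0.

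The solid tissue lists each held 2 to 4 genes at a TPM of 1 or more. MUC1 of the epithelial list had 34.5 and 36.0 TPM, and its defining genes KRT5 and KRT19 were at 0. PECAM1 of the endothelial list, which leukocytes also carry, had 35.6 and 32.8 TPM, and TEK was at 0. CKM, muscle creatine kinase, had 17.6 and 17.6 TPM, with MYOD1 and MYH2 at 0. SNAP25 of the neuron list had 5.91 and 6.55 TPM, with STMN2 and SYT1 at 0, and SYCP1, a protein of the meiotic synaptonemal complex, had 19.6 and 20.2 TPM, with DAZL and PRM1 at 0. The part of other cells in these values was not tested.

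PIWIL4, the gene the series knocks down in its other arm, had 23.7 and 23.6 TPM in the control cells. PIWI proteins are Argonaute relatives that bind small RNAs in the germline and silence transposons there. Its relative PIWIL2 had 0.394 and 0.394 TPM, PIWIL3 had 0.0163 and 0, and PIWIL1 was at 0 in both. AGO4 had 33.2 and 33.7 TPM, AGO2, the slicing Argonaute, 20.2 and 22.3, AGO1 15.5 and 15.4, and AGO3 6.84 and 6.86. None of the 6 neighbouring pairs in this order overlapped, so PIWIL4 stood between AGO4 and AGO2.

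Of the 5675 rows at 0 in both libraries, 912 had a MIR name and 633 a LOC name. Families used in few tissues had high shares at 0. Of 398 olfactory receptor rows, 351 (88.2%) were at 0 in both libraries, as were 82 of 94 keratin-associated proteins (87.2%) and 38 of 40 beta-defensins (95%). Over all rows the share was 22.1%. DEFB1, a beta-defensin of epithelia, was the exception in its family at 342 and 298 TPM. Placed in RefSeq's gene order, 18838 protein-coding rows held 88 runs of 5 or more neighbours at 0, and the longest, of 61 genes, ran through olfactory receptors from OR4B1 to LRRC55 on chromosome 11. These bounds, and those of the blocks that follow, were chosen after the values were seen.

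Some runs took in genes that most cells use. On chromosome 9 all 17 neighbours from IFNA4 to CDKN2B were at 0, a stretch of interferon genes with KLHL9, an adaptor of a ubiquitin ligase, MTAP, an enzyme of methionine salvage, and CDKN2A and CDKN2B, which encode inhibitors of CDK4 and CDK6. Of the 40 genes flanking that run, 20 on each side, 23 had a TPM of 1 or more. On the X chromosome 9 neighbours from PPP1R2P9 to CXorf36 were at 0, among them KDM6A, a histone H3 lysine 27 demethylase, MAOA and FUNDC1. There 26 of the 40 flanking genes had a TPM of 1 or more.

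Other genes that brake the cell cycle were present. CDKN1A (p21) had 147 and 153 TPM, CDKN2C (p18) 93.4 and 104, CDKN1B (p27) 23.2 and 30.01, and CDKN2D (p19) 22.2 and 20.4. RB1, the retinoblastoma protein, had 63.0 and 70.0 TPM. The kinases CDK4 (169 and 159), CDK6 (40.01 and 47.6), which drive the cell past G1, and their partner CCND3 (141 and 149) were also well above 1.

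A further run of 15 genes, from GTPBP6 to XG, lies in the region shared by the X and Y chromosomes, with XG at its edge, and includes CSF2RA, IL3RA, the surface protein CD99 and SLC25A6, an ADP/ATP carrier of mitochondria. All 15 were at 0. The next gene, GYG2, which lies outside that region, had 24.6 and 23.2 TPM. The neighbour on the other side, PLCXD1, had 0 and 0.00358 TPM, and its deposited row length of 10750 bases was 1.74 times its summed exon length in GENCODE v29 (6191 bases). A row at 0 gives no length, so this ratio could not be taken for the 15 genes. Why these rows were at 0 was not tested, so the zeros do not show whether the transcripts were absent.

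The largest stretch of low values was the major histocompatibility complex on chromosome 6. From TRIM27 to CUTA, 147 of 161 neighbouring protein-coding rows were below 1 TPM in both libraries, 68 of them at 0, and the median was 0.00147 TPM. Of the 40 flanking genes, 25 had a TPM of 1 or more, such as ZKSCAN8 (24.9 and 25.5) before and BAK1 (56.0 and 59.9) after. The low rows include genes that every cell uses: BAG6, a chaperone, had 0.0380 and 0.0249 TPM, CLIC1 had 0.00500 and 0.0124, DDX39B, an RNA helicase of mRNA export, had 0.376 and 0.325, and VARS, valyl-tRNA synthetase, was at 0.

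The deposited lengths set the same rows apart. Row length could be recovered for 92 genes of this stretch that GENCODE v29 also lists, and the median was 4.98 times the GENCODE exon length. For 86 of the 92 (93.5%) it was 2 times or more, against 0.618% of 15372 other protein-coding rows, where the median ratio was 0.741. None of the 36 genes with a ratio among the 20 on each side reached 2. Farther out, HIST1H2BK, at place 40 before the stretch, had a ratio of 2.20. TAP1, the peptide transporter of MHC class I, had a row of 25160 bases (5.24 times) and 0.0197 and 0.0122 TPM. HLA-E had 18634 bases (6.26 times) and 0.01998 and 0.0351 TPM. Why these rows were long and low was not tested, so these values do not show whether the transcripts were absent.

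**Figure D3:**
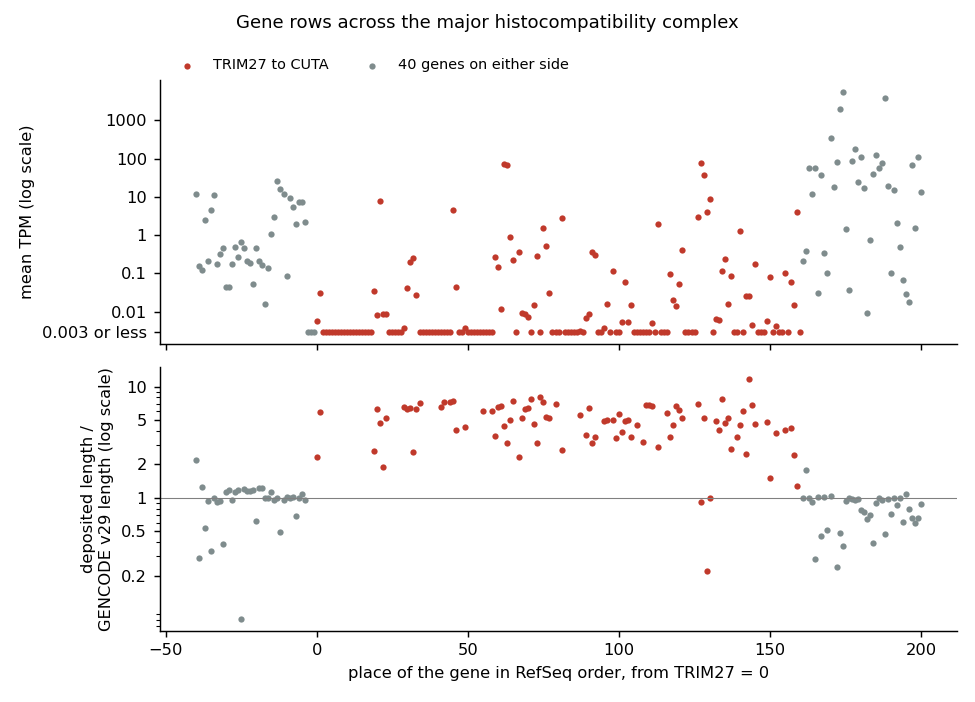
Mean TPM (upper panel, log scale) and deposited row length over GENCODE v29 exon length (lower panel, log scale) for protein-coding genes in RefSeq order from TRIM27 to CUTA (red) and 40 genes on either side (grey). Of the red genes 147 of 161 are below 1 TPM, and their median length ratio is 4.98.

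Other results touch this stretch. Of 325 genes in 9 lists of basic functions, 5 were below 1 TPM in both libraries, RPS18, HSPA1A, HSPA1B, PSMB8 and PSMB9, and all 5 lie in it. None of the 319 list genes outside it was that low. The sixth member inside, the tubulin TUBB, had 4.54 and 4.56 TPM with a row of 24937 bases. In antigen presentation, HLA-B had 61.3 and 74.4 TPM, and HLA-C had 68.9 and 78.6, with length ratios of 3.09 and 4.41. Of the class I genes that lie elsewhere, NLRC5, the class I transactivator, had 24.2 and 25.8 TPM, and ERAP1, a peptide-trimming enzyme, had 39.8 and 39.4.

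For class II, CD74, the invariant chain encoded on chromosome 5, had 300 and 301 TPM and CIITA, the class II transactivator, had 4.33 and 4.52. HLA-DRB5 had 75.4 and 74.2 TPM with a length ratio of 0.927, HLA-DRB1 36.2 and 37.3 with a ratio of 5.19, and HLA-DRA 2.87 and 2.89 with a ratio of 7.01. HLA-DMB was at 0, and HLA-DPA1 and HLA-DPB1 were below 0.03. TNF and LTA, which lie in the same stretch, had at most 0.0110 TPM, on rows 7.78 and 6.47 times their GENCODE exon length.

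The 2 libraries agreed closely for most genes. Over the 15812 rows with a mean count of at least 10, the log2 ratio of library 2 to library 1, on CPM scaled by edgeR's TMM, had a median of 0.00 and an SD of 0.25. A ratio past 2-fold was seen in 136 rows, 0.86% of those compared. The 95% exact binomial interval of the counts left out a ratio of 1 in 29.3% of rows. Counting error alone would give at most 5%, and less where counts are small. The share of rows left out grows with depth: it was 5.46% at a mean TPM of 0.1 to 1 and 89.8% above 1000. The biological coefficient of variation that edgeR estimated from this pair was 0.0545, with 1 degree of freedom per gene.

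The spread depended on level and on row length. The SD of the log2 ratio was 0.48 at a mean TPM of 0.1 to 1, 0.24 at 1 to 10 and 0.15 at 10 to 100. It was 0.12 at 100 to 1000 and 0.21 above 1000. In that top class 3 of 127 rows (2.36%) were past 2-fold, all of them rows of MIR1244 with identical counts. The value of 0.21 includes these 3 rows, and no SD without them was taken. It was 0.46 for the 421 rows under 200 bases, of which 5.23% were past 2-fold, and 0.21 for the 7809 longest rows, of which 0.589% were. With a mean count of at least 100, only 5 of 12500 rows were past 2-fold, the 3 identical rows of MIR1244, MIR7705 and MIR6723.

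**Figure D4:**
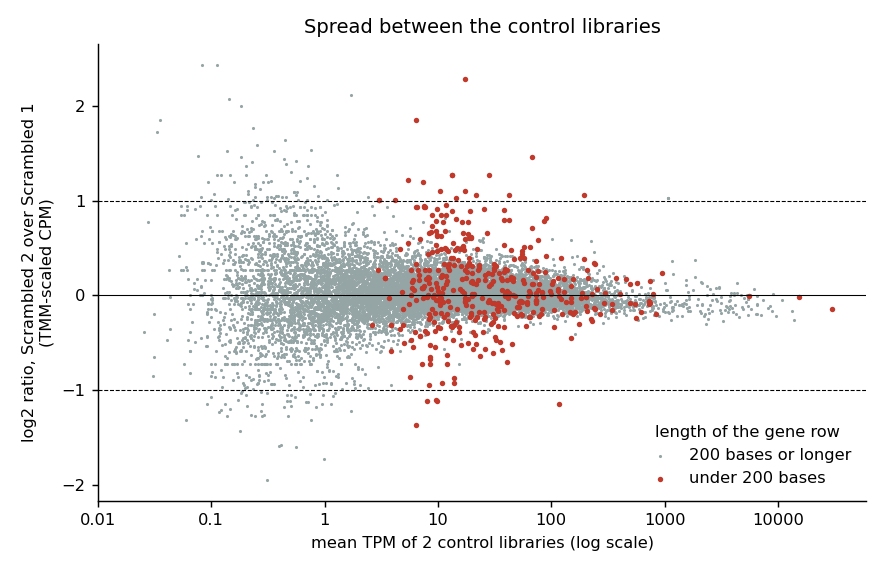
Log2 ratio of Scrambled library 2 to library 1 on TMM-scaled CPM (vertical axis) against mean TPM (horizontal axis, log scale) for 15812 gene rows, with 2-fold marked by dashed lines. Rows under 200 bases, in red, spread more widely (SD 0.46) than all rows together (SD 0.25), and 136 rows in all lie past 2-fold.

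Among rows with a mean TPM of at least 10, the 20 largest ratios, 10 in each direction, were in rows of 233 bases or fewer. MIR186 had 5.77 and 29.1 TPM from 8 and 65 counts, a log2 ratio of 2.29, and MIR1279 had 35.0 and 99.3 TPM, a ratio of 1.46. MIR6723 had 160 and 73.9 TPM, a ratio of -1.15, and the small nucleolar RNA row SNORD12C had 18.1 and 9.74, a ratio of -0.93. The 10 rows with the highest ratio all had microRNA names, and the longest of the 20 was SNHG9, a host of small nucleolar RNA, at 18.9 and 11.7 TPM.

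No member of the monocyte list (28 compared) or the granule list (19 compared) was past 2-fold, where 0.86% of all rows were, so this count is near the background. The median log2 ratios were 0.03 and -0.01. Ribosomal protein genes were lower in library 2 in 57 of 78 cases, with a median log2 ratio of -0.11, and nuclear-encoded genes of oxidative phosphorylation in 38 of 46, with a median of -0.11, beside 7778 of all 15812 rows. Other abundant genes were lower as well: 94 of the 127 rows above 1000 TPM (median -0.09), 711 of 1142 at 100 to 1000, 27 of 34 translation factors and 27 of 34 proteasome genes. Among the serine proteases, AZU1 and ELANE had the wider gaps between libraries given above. The 16 common reference genes had an SD of 0.09. In deposited TPM, TFRC (229 and 230) and RPLP0 (5501 and 5493) were among those nearest to equal. On TMM-scaled CPM the log2 ratio of RPLP0 was -0.042.

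The promoters of present and absent genes differed in base composition. In the 300-base RefSeq windows, the median ratio of observed to expected CpG was 0.285 for the 2138 protein-coding genes at 0, 0.785 at 1 to 10 TPM, 0.860 at 10 to 100 and 0.890 above 1000. Median GC content was 51.3% in genes at 0 and 65.7% at 10 to 100. The word GGGCGG, the core of Sp1 sites, was present on either strand in 29.5% and 72.3% of these windows. The TATA box word TATAAA, on either strand, was in 22.4% of windows at 0, 4.41% at 10 to 100 and 14.9% above 1000. The E-box CACGTG, which MYC can bind, was in 5.57% of windows at 0, 13.4% at 100 to 1000 TPM and 6.38% above 1000.

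Gene lists differed in the same measure. The median CpG ratio was 0.229 in the 29 monocyte windows and 0.213 in the 19 granule windows, and 0.914 in the 63 ribosomal protein windows. It was 0.697 in the 18 stem and progenitor windows and 0.763 in the 38 of haematopoietic transcription factors. Lists of other lineages varied, from 0.098 in 9 mast cell, basophil and eosinophil windows to 0.637 in 10 germ cell windows. Between these lay 0.137 in 9 erythroid, 0.146 in 8 hepatocyte and 0.479 in 7 endothelial windows. These medians include members at 0, and no comparison at equal level was made. Row length fell with level at the top: its median was 3241 bases at 10 to 100 TPM, 2296 at 100 to 1000 and 978 above 1000 in protein-coding genes with a window. Because TPM divides by length, length and level are not independent on this scale.

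**Figure D5:**
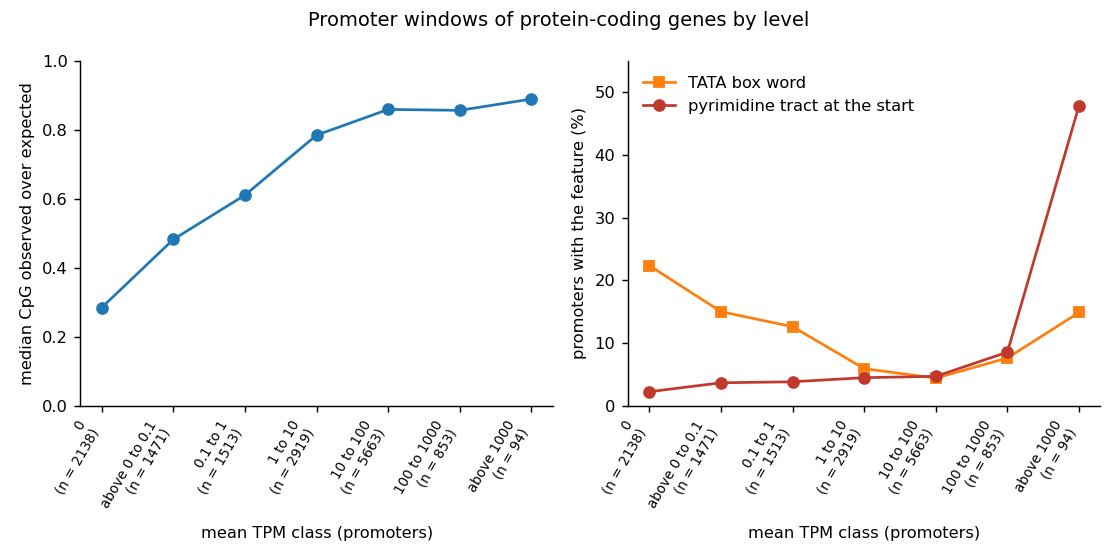
Median CpG observed over expected (left) and the share of promoter windows with the TATA box word or a pyrimidine tract at the start (right, %) for protein-coding genes grouped by mean TPM (horizontal axis, n = windows). The CpG ratio goes from 0.285 at 0 to 0.890 above 1000 TPM, and the pyrimidine tract from 2.25% to 47.9%.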

How the data were processed

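STAR, featureCounts, DESeq2 and the build hg19 are named in the submitters' processing notes. No version, annotation or strand setting is given there. Each deposited table holds a raw read count, an FPKM and a TPM per gene row, per the file headers. The authors' TPM sums to 1000000 in each library. Row lengths were recovered from the deposited FPKM and count (largest distance from a whole number 0.0769 bases). The 28 names turned into dates are not named. The deposited matrix of scaled counts and the knockdown libraries were not used. No group was compared with another; ranges, medians and counts describe 2 libraries. TMM scaling and dispersion used edgeR 4.0.16, tested on simulated data, and hairpins were matched with blastn 2.17.0+ at no mismatch over at least 30 bases. RefSeq names matched 24440 rows and GENCODE v29 names 22989; where RefSeq gave several windows, the first was used. Without a known strand setting, reads of antisense genes may not be told apart. Gene lists, members and motifs were chosen with earlier results of these data known; the pyrimidine start and the block bounds were chosen after the values were seen. Named genes are the 30 highest rows, the defining, leading and absent members of each list, whole short lists, the largest library ratios, and genes in runs at 0. Some list members are not reported here.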

Additional observations from a re-analysis of the deposited data

How the results depend on the processing

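The results come from 2 libraries of 1 group. No paired analysis was possible because only the Scrambled libraries were used and no test was made. Of 47 alternative settings over 9 results, 36 stayed within the replicate SD or within 1.5 times the value given. The share of the 100 highest rows, 43.7% of TPM, was 22.3% when rows were ranked by CPM, 31.3% without ribosomal protein genes, 42.4% without rows under 200 bases (added after seeing the data), and 43.0% to 44.5% in single libraries. Other lineages' markers at 5 TPM or more numbered 24, against 54 at 1 TPM. With a mean count of at least 100 the SD of the log2 ratio was 0.14 and 5 rows were past 2-fold; with only 1 count required in both libraries these were 0.46 and 959. The median CpG ratio at 10 to 100 TPM exceeded that at 0 by 0.575, by 0.569 on CPM, and by 0.560 to 0.567 in single libraries. Leaving out microRNA rows, also added later, gave 4763 rows at 0, and leaving out list members in the histocompatibility and pseudoautosomal blocks gave 25 monocyte, 19 granule and 54 other markers. Protein lengths were not run, since no protein table was used here. Depth limits rows at 0 as stated above.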

Other observations

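Rows grouped by the start of their name showed other classes that the lists do not cover. Of 559 rows named ZNF, for zinc finger genes, 450 (80.5%) had a TPM of 1 or more in both libraries and 23 were at 0, with a median of 6.52 TPM. Of 370 small nucleolar RNA rows, 212 (57.3%) had a TPM of 1 or more, led by SNORD58B at a mean of 727 TPM. The share over all rows was 53.7%, and a short row needs few counts to reach a TPM of 1. Long non-coding rows were sparser: 126 of 749 rows named LINC (16.8%) and 332 of 1472 rows named LOC (22.6%). LINC00926, the highest of the LINC rows, had 463 and 461 TPM. Replication-dependent histone genes, whose messages mostly lack a poly(A) tail, were low, with 10 of 73 rows named HIST at 1 or more. Of 27 taste receptor rows 5 were at 0 and 5 had a TPM of 1 or more, with a median of 0.117 TPM.

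Some rows had the same pair of counts as another row. Of 12024 rows with at least 100 counts in library 1, 286 shared both counts with another row, in 141 sets. Some are near-identical or overlapping genes, such as H3F3A and H3F3AP4 (6654 and 10169 counts each), MTPN and LUZP6 (5960 and 11402), and PYURF and PIGY (1358 and 2133). Others, such as OPA3 and PRG2 (1550 and 2447), are unrelated genes with equal counts. How many sets coincidence alone would give was not computed. Their values are given as deposited.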
